A study of Mus musculus with 22 samples.

Results

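The collagen genes described here are the 44 genes whose symbol has the form Col, a number, a and 1 digit (Col1a1 to Col28a1), taken by name alone from a table of 24467 genes. The rule uses no measured value. The table gives CUT&RUN read counts in windows of 5000 bp, each centred on 1 annotated transcription start site on mm10, so a level refers to the start region and not to transcription, and all windows have the same length. CUT&RUN uses an antibody to direct a nuclease to a bound protein or histone mark and sequences the DNA that is released. Neural progenitor cells (NPC) were compared with the mouse embryonic stem cells (ESC) from which they were made. To obtain NPC, the cells received 10 ng/mL basic fibroblast growth factor (bFGF) over 72 h, then 500 nM of SAG, which switches on Hedgehog signalling, over 48 h. ESC were C57BL/6 cells kept without serum in N2B27 medium with LIF at 100 U/mL and the inhibitors CHIR99021 at 3 µM and PD0325901 at 1 µM. Both cell types carry the genotype label "untagged, Tir1" (Tir1 is a plant auxin receptor used in protein degradation systems) and the treatment label "untreated". Each cell type had 2 libraries for each of 5 antibodies and 1 IgG library, all named for the same sequencing run. The libraries of a pair are called biological replicates in the series record, and nothing states whether they came from separate cultures, so p-values measure the spread between these libraries. Whether the line is 1 clone is not given in the sources used here.

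Collagens are triple-helical proteins of the extracellular matrix. Fibrillar collagens form the cables of bone, skin, tendon and cartilage, type IV collagen forms the sheet of basement membranes, type VI forms beaded microfilaments, and the FACIT collagens sit on fibrils and link them to other matrix. Most are made by mesenchymal cells, while type IV and the multiplexins are also made by epithelia, endothelia and the developing nervous system. SUZ12 belongs to the core of PRC2, the Polycomb complex that places H3K27me3, a mark of repressed start sites. MTF2 and JARID2 are accessory subunits of different forms of PRC2, and MTF2 binds DNA rich in CpG. H3K4me3 marks active and poised start sites.

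The 6 promoters below are shown because their genes carry the main patterns below: SUZ12 lower in NPC (Col19a1, Col25a1), H3K27me3 lower without a SUZ12 call (Col11a1, Col9a1, Col6a5), and H3K27me3 higher (Col9a2). Each is the 250 bases before the start site, 5′ to 3′ on the gene's strand, from RefSeq on GRCm38.p6, the assembly called mm10. Capitals mark CG dinucleotides. In the order printed they lie at chr1:24587438-24587687, minus strand (10 CG), chr3:130180595-130180844, plus strand (18 CG), chr3:114030290-114030539, plus strand (7 CG), chr1:24194953-24195202, plus strand (0 CG), chr9:105960644-105960893, minus strand (8 CG) and chr4:121039316-121039565, plus strand (9 CG).
Col19a1: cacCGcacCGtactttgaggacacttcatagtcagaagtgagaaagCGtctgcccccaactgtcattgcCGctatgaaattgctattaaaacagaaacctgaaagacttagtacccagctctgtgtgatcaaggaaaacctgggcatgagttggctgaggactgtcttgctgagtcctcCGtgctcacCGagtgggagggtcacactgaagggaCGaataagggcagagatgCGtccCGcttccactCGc
Col25a1: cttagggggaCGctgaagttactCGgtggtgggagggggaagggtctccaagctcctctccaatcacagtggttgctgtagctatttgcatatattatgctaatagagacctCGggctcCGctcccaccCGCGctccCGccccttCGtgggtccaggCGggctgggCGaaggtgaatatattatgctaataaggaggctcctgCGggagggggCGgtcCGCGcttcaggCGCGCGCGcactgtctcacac
Col11a1: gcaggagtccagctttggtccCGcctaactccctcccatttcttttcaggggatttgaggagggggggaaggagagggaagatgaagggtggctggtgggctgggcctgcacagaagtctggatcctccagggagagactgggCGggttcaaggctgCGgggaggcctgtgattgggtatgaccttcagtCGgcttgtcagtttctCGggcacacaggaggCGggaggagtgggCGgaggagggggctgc
Col9a1: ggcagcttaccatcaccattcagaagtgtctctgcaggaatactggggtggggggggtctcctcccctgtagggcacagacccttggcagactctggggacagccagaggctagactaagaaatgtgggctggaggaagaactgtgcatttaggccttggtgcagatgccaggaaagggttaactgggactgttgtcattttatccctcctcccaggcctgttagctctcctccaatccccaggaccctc
Col6a5: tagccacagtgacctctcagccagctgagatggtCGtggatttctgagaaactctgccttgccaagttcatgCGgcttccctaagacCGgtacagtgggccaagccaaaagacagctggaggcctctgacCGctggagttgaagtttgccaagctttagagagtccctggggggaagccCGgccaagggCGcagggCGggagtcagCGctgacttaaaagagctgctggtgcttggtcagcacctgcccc
Col9a2: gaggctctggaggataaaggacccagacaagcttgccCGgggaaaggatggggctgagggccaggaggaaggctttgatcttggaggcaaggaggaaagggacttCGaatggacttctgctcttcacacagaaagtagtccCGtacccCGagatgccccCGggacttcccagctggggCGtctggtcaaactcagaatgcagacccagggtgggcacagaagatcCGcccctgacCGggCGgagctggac

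Library totals over all windows ran from 448667 to 857691 counts for SUZ12, 339591 to 492529 for JARID2, 439379 to 832117 for MTF2, 647615 to 1569812 for H3K27me3 and 3264267 to 8425292 for H3K4me3. The IgG totals were 667898 counts in NPC and 298458 in ESC. Levels are counts per 1000000 of that total (CPM), and 3 counts corresponded to 10.1 CPM in the IgG library of ESC. Since PCR copies reads, that floor accounts for counting error alone. H3K4me3 at the marker genes followed the labels: it summed to 853 and 871 CPM over 6 neural progenitor markers in NPC, against 199 and 184 CPM in ESC, with 6 of 6 called as higher. Over 6 naive pluripotency markers it summed to 164 and 161 CPM in NPC, against 1026 and 1085 CPM in ESC, with 5 of 6 called as lower. Over 10 fibroblast and mesenchyme markers, the cells that make most collagen, it summed to 229.8 and 214 CPM in NPC and 211 and 177 CPM in ESC, with 3 called as higher, 4 as lower and none at 0 counts. Over 5 endothelial markers it summed to 83.6 and 78.2 CPM in NPC and 134 and 113 CPM in ESC, with 4 called as lower, and over 6 neural crest markers to 168 and 171 CPM in NPC and 207 and 194 CPM in ESC, with 3 called in each direction. Endoderm and neuron markers summed higher in NPC: 7 endoderm markers to 267 and 265 CPM in NPC and 211 and 180.3 CPM in ESC, with 2 called in each direction, and 6 neuron markers to 193 and 209 CPM in NPC and 117 and 120.1 CPM in ESC, with 4 called as higher and 1 as lower. Any part of other cell types in the results was not tested. In bulk samples a change per cell and a change in the share of cells that carry a mark cannot be told apart.

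Some collagen genes lost SUZ12 and some lost H3K27me3 at the start site, while H3K4me3 changed in both directions. A gene is said to rise or fall where the edgeR quasi-likelihood test gave a Benjamini-Hochberg adjusted p below 0.05 over all windows tested for that antibody. Groups are said not to overlap where both libraries of 1 cell type lay above both of the other. The share of all windows without overlap was not counted, so this describes the libraries and is no test. With SUZ12, 1 of 42 tested collagen genes rose and 13 fell, beside 2.97% and 13.1% of all windows. With MTF2, 1 of 40 rose and 8 fell, beside 3.26% and 9.04%. With JARID2, 0 of 41 rose and 1 fell, beside 0.0792% and 0.760% (0.839% in either direction), and 8 collagen genes had an unadjusted p below 0.05. DESeq2 called 0 rising and 0 falling collagen genes with JARID2. With H3K27me3, 3 of 44 rose and 20 fell, beside 22.9% and 23.5% of all windows. With H3K4me3, 14 of 43 rose and 11 fell, beside 26.7% and 29.2%. The counts for SUZ12, MTF2 and H3K27me3 thus stood above the background in the falling direction. The count of H3K27me3 gains stood below it, and those for H3K4me3 were near it. Col4a1 and Col4a2 share reads and count as 2 genes among the SUZ12 and MTF2 falls, as do Col4a5 and Col4a6 among the H3K27me3 falls. The median log2 change of the collagen genes was -0.16 for SUZ12, -0.21 for MTF2, -0.25 for JARID2, -0.85 for H3K27me3 and 0.14 for H3K4me3, where that of all windows was 0.07, 0.07, -0.00, 0.12 and -0.02. Scaling by library totals moved the median of all SUZ12 windows to 0.34 and that of the collagen genes to 0.11. TMM factors from background windows, those not above IgG, moved these medians for H3K27me3 to -0.35 and -1.31, so directions are relative to the bulk of windows. The members not tested for lack of reads were Col4a5 and Col4a6 with SUZ12, MTF2 and JARID2, Col3a1 with MTF2 and JARID2, Col10a1 with MTF2 and Col28a1 with H3K4me3. A total of 5 genes had no call with any antibody: Col3a1, Col5a2, Col5a3, Col10a1 and Col28a1. The Col5a3 window shares 1564 bp with that of Rdh8.

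**Figure D1:**
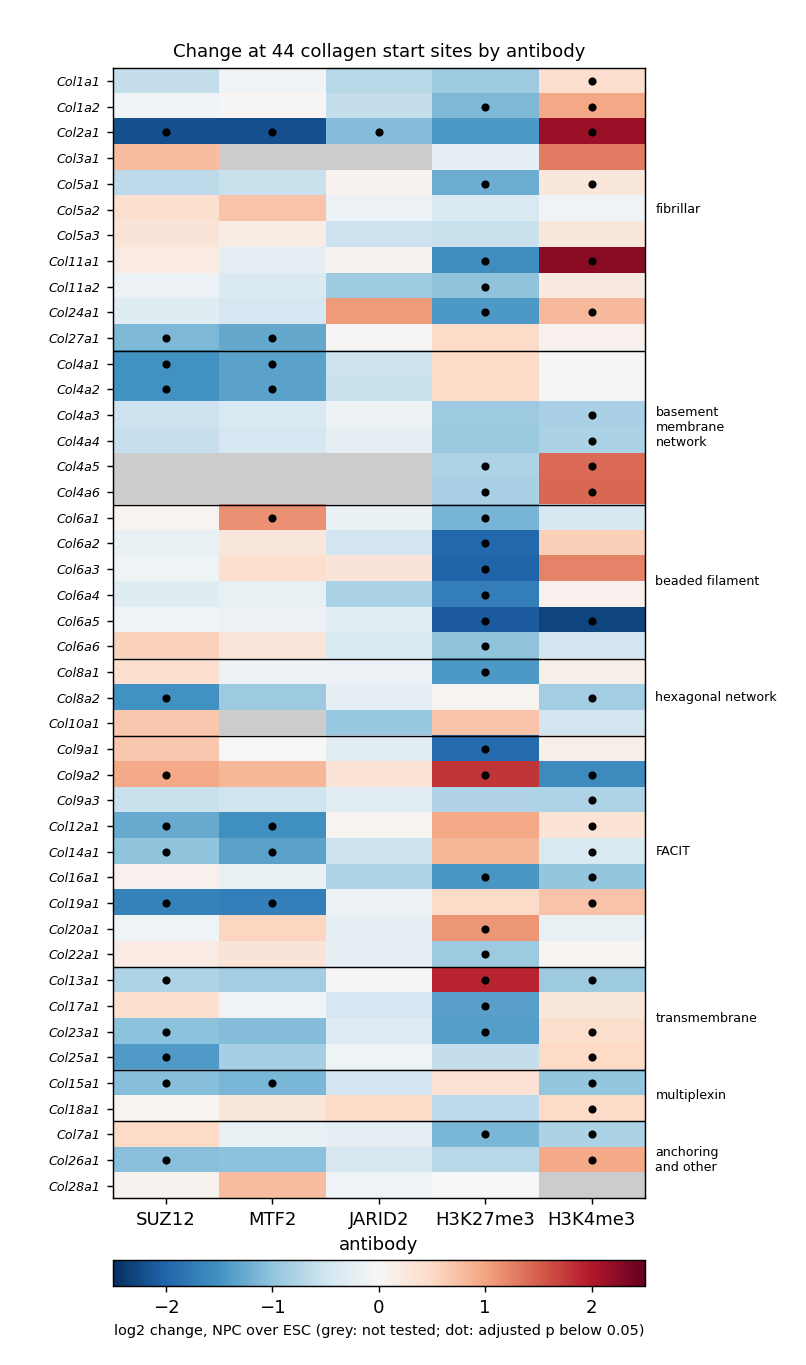
Log2 change between NPC and ESC (colour) for 44 collagen genes (rows, by structural class) and 5 antibodies (columns), with a dot where the edgeR adjusted p was below 0.05 and grey where a gene was not tested. All 6 type VI genes have a dot for H3K27me3 and none for SUZ12, while Col2a1 has a dot for SUZ12, MTF2, JARID2 and H3K4me3.

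How firmly these counts stood differed by antibody. Leaving out 1 library also lowered the calls over all windows in several cases, most strongly for MTF2 without NPC replicate 1 or ESC replicate 1. With DESeq2, H3K27me3 fell in 2502 of 21863 windows, in place of 5127. A lost call is therefore not particular to the collagen genes. Of the 13 SUZ12 losses, 10 were called with each library left out in turn: Col2a1, Col4a1, Col4a2, Col8a2, Col12a1, Col15a1, Col19a1, Col23a1, Col25a1 and Col27a1. Without NPC replicate 2 the losses at Col13a1, Col14a1 and Col26a1 did not pass. A minimum count of 30, which left 15 collagen genes tested for SUZ12, gave 5 SUZ12 losses and 2 MTF2 losses. The losses no longer called there were still tested. The 20 H3K27me3 losses became 7 without ESC replicate 1, 8 without ESC replicate 2 and 12 with DESeq2, which also called Col2a1, and 6 were called with each library left out in turn (Col6a3, Col6a4, Col6a5, Col8a1, Col9a1 and Col11a1). The calls at Col1a2, Col4a5, Col4a6, Col5a1, Col7a1, Col11a2, Col16a1, Col17a1, Col23a1 and Col24a1 needed both ESC libraries, those at Col4a5 and Col4a6 also NPC replicate 1, and that at Col22a1 needed ESC replicate 2 and NPC replicate 2. The count of H3K27me3 gains was 0 without ESC replicate 1 or 2 and 11 without NPC replicate 1, against 3 with all libraries. The 8 MTF2 losses became 0 without NPC replicate 1, 0 without ESC replicate 1 and 4 without ESC replicate 2, where Col25a1 was newly called, so none was called with every library left out. The single JARID2 call was lost without any 1 library. For H3K4me3, 10 of 14 rises and 7 of 11 falls were called with each library left out, and those lost were Col1a1, Col5a1, Col12a1, Col14a1 and Col25a1 without ESC replicate 2, Col6a5 without ESC replicate 1, Col12a1 and Col9a3 without NPC replicate 2, and Col7a1 without any of these 3. For this mark, TMM factors from background windows gave 11 rising and 2 falling collagen genes in place of 14 and 11, and moved the median of all windows to 0.30. The same scaling gave 0 rising and 9 falling genes for MTF2 in place of 1 and 8.

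Among the 11 fibrillar collagens, H3K4me3 rose at 6, H3K27me3 fell at 5, and SUZ12 fell at 2. The shares over all windows were 26.7%, 23.5% and 13.1%. Each structural class holds few genes, and no class was tested against these shares. Col2a1, which encodes the type II collagen of cartilage, had the largest drop in SUZ12 of all 44 genes. Its window lies at chr15:98002225-98007224 on the minus strand. SUZ12 at Col2a1 was 68.7 and 55.7 CPM in the NPC libraries, against 274 and 199.9 CPM in the ESC libraries (log2 -2.20 ± 0.24 SE, adjusted p = 4.27e-17). MTF2 there was 61.5 and 77.4 CPM in the NPC libraries, against 306 and 215 CPM in the ESC libraries (log2 -2.19 ± 0.69 SE, adjusted p = 0.0205). With both antibodies the ESC libraries lay far above the NPC libraries with no overlap, although the MTF2 call was lost without NPC replicate 1 (adjusted p = 0.114), ESC replicate 1 (0.369) or ESC replicate 2 (0.127). JARID2 at Col2a1 was 52.8 and 38.3 CPM in the NPC libraries, against 85.5 and 109 CPM in the ESC libraries (log2 -1.09 ± 0.28 SE, adjusted p = 0.0239). This was the only JARID2 call among the collagen genes, the libraries did not overlap, and the adjusted p ran from 0.0511 to 0.446 with 1 library left out. H3K4me3 at Col2a1 was 112 and 121 CPM in the NPC libraries, against 29.3 and 20.7 CPM in the ESC libraries (log2 2.16 ± 0.10 SE, adjusted p = 1.09e-101). H3K27me3 was 70.9 and 87.3 CPM in the NPC libraries, against 273 and 236 CPM in the ESC libraries, and did not pass (log2 -1.43 ± 0.70 SE, adjusted p = 0.0805). The H3K27me3 libraries did not overlap either, and Col2a1 was called as lower by DESeq2.

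Col11a1 encodes a chain of type XI collagen, which forms the core of cartilage fibrils together with type II. At its window, chr3:114028040-114033039 on the plus strand, H3K4me3 was 75.1 and 80.2 CPM in the NPC libraries, against 17.4 and 14.4 CPM in the ESC libraries (log2 2.25 ± 0.12 SE, adjusted p = 1.03e-82), the largest H3K4me3 rise of the collagen genes. H3K27me3 was 16.6 and 17.2 CPM in the NPC libraries, against 50.7 and 69.5 CPM in the ESC libraries (log2 -1.55 ± 0.31 SE, adjusted p = 9.85e-06). Both differences were free of overlap and called with each library left out. SUZ12 at Col11a1 was 53.7 and 20.1 CPM in the NPC libraries, against 33.8 and 16.7 CPM in the ESC libraries, with overlapping groups (log2 0.20 ± 0.35 SE, adjusted p = 0.779). Its sign was not stable: the log2 change was -0.70 without NPC replicate 1 and -0.19 without ESC replicate 2. For Col11a2, the other type XI chain, H3K27me3 was 49.9 and 37.6 CPM in the NPC libraries, against 107 and 91.1 CPM in the ESC libraries (log2 -1.0 ± 0.41 SE, adjusted p = 0.033), and the call was lost with DESeq2.

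The type I chains, the main collagen of bone and skin, differed less. At Col1a2 (chr6:4503118-4508117) H3K27me3 was 36.6 and 33.8 CPM in the NPC libraries, against 93.2 and 83.4 CPM in the ESC libraries (log2 -1.11 ± 0.38 SE, adjusted p = 0.00953), with no overlap. H3K4me3 at Col1a2 was 15.3 and 13.4 CPM in the NPC libraries, against 6.80 and 7.46 CPM in the ESC libraries (log2 0.98 ± 0.25 SE, adjusted p = 0.00033), also with no overlap. The H3K27me3 call was lost without ESC replicate 1 (adjusted p = 0.265) or ESC replicate 2 (0.0995). At Col1a1 (chr11:94933724-94938723) H3K4me3 was 30.0 and 26.3 CPM in the NPC libraries, against 22.1 and 17.7 CPM in the ESC libraries (log2 0.41 ± 0.15 SE, adjusted p = 0.0103). This small rise was lost without ESC replicate 2 (adjusted p = 0.273) and with DESeq2. H3K27me3 at Col1a1 was 84.2 and 94.9 CPM in the NPC libraries, against 219 and 174 CPM in the ESC libraries and did not pass (log2 -0.89 ± 0.64 SE, adjusted p = 0.243), although its groups did not overlap. Col3a1, the type III collagen of vessels and skin, had low levels throughout: H3K4me3 was 3.37 and 2.02 CPM in the NPC libraries, against 0.949 and 1.10 CPM in the ESC libraries (log2 1.29 ± 0.83 SE, adjusted p = 0.185).

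Of the remaining fibrillar genes, Col24a1 and Col5a1 paired a fall of H3K27me3 with a rise of H3K4me3. Type V collagen sets fibril width. H3K27me3 at Col24a1 was 31.0 and 36.9 CPM in the NPC libraries, against 107 and 116 CPM in the ESC libraries (log2 -1.44, adjusted p = 0.00238), and H3K4me3 rose by log2 0.81. At Col5a1 the log2 changes were -1.24 for H3K27me3 and 0.29 for H3K4me3 (adjusted p = 0.0394 and 0.00604). Both H3K27me3 calls were lost without ESC replicate 1 (adjusted p = 0.148 and 0.437) or ESC replicate 2 (0.0736 and 0.261). Col27a1 was the other fibrillar gene with a SUZ12 loss: SUZ12 was 51.5 and 62.4 CPM in the NPC libraries, against 107 and 98.1 CPM in the ESC libraries (log2 -1.11 ± 0.25 SE, adjusted p = 9.6e-05), with no overlap. Its H3K27me3 groups overlapped, at 111 and 138 CPM in the NPC libraries, against 117 and 95.7 CPM in the ESC libraries (log2 0.48, adjusted p = 0.508).

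**Figure D2:**
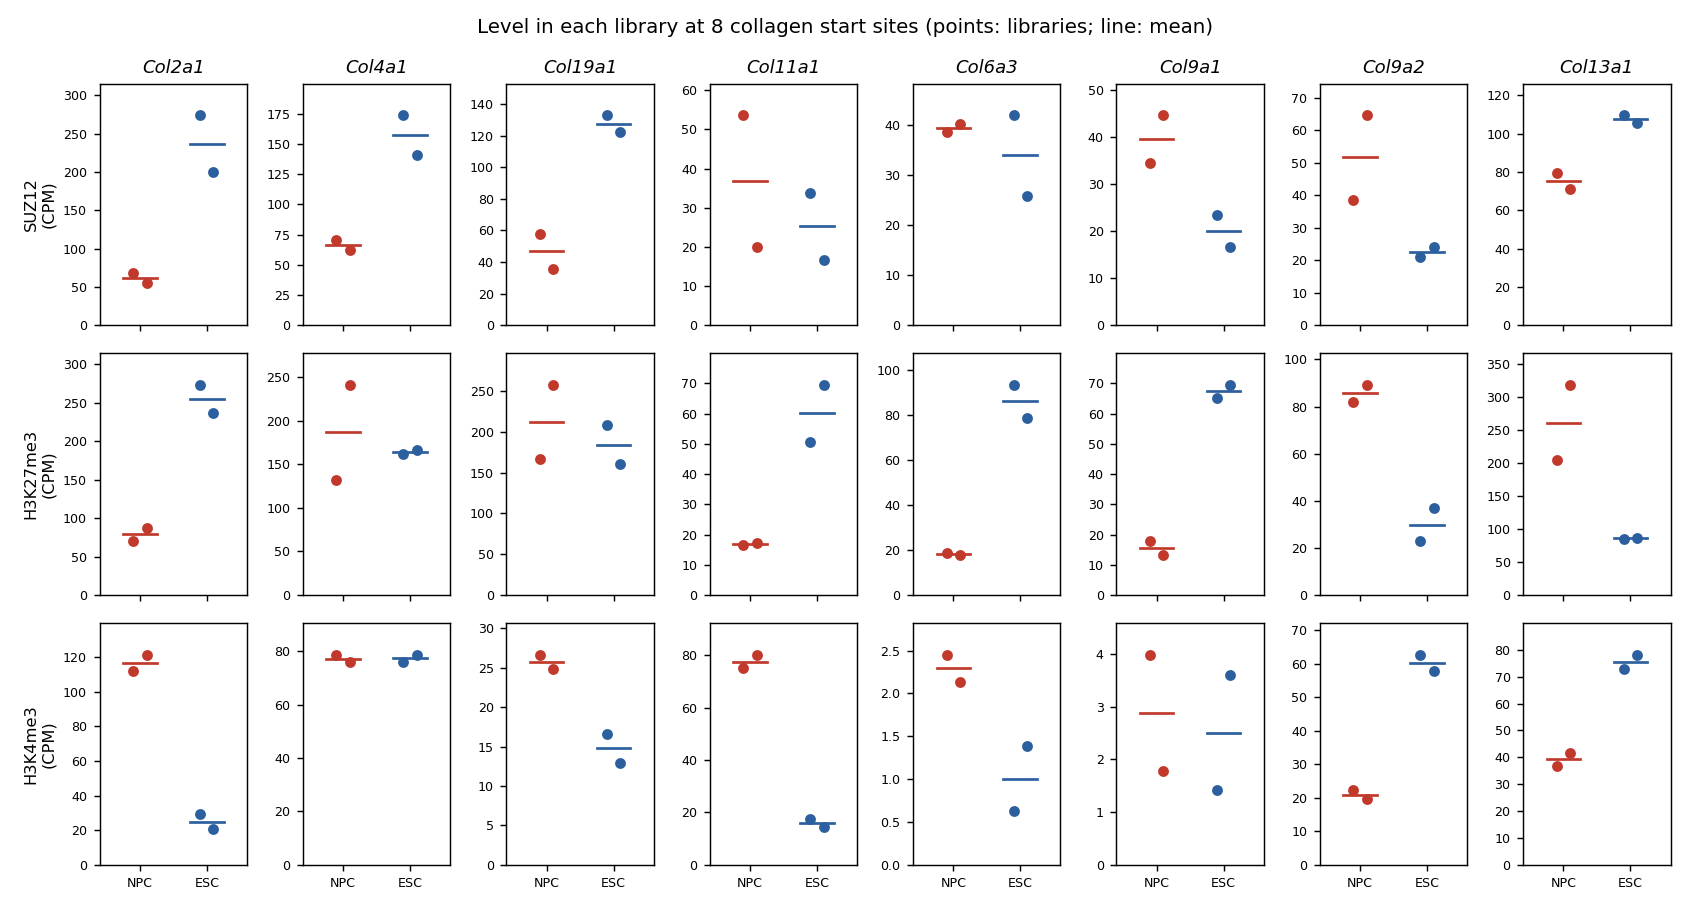
Level in CPM (vertical axis, from 0, scaled per panel) in each library (points) and the mean of 2 libraries (lines) in NPC and ESC for SUZ12, H3K27me3 and H3K4me3 at 8 collagen genes. Col2a1, Col4a1, Col19a1 and Col13a1 have lower SUZ12 in both NPC libraries, Col11a1, Col6a3 and Col9a1 have lower H3K27me3, and Col9a2 has higher H3K27me3 with lower H3K4me3.

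The type IV genes lie in head-to-head pairs, and the windows of a pair share 3658 to 4978 of their 5000 bases, so their reads are shared and the genes of a pair are not separate measurements. The start sites are 22 bp apart for Col4a1 and Col4a2, 71 bp for Col4a3 and Col4a4, and 1342 bp for Col4a5 and Col4a6. Col4a1 and Col4a2, the chains present in nearly all basement membranes, lost SUZ12 while the NPC and ESC libraries overlapped for both marks. At Col4a1 (chr8:11310327-11315326) SUZ12 was 70.8 and 62.4 CPM in the NPC libraries, against 174 and 141 CPM in the ESC libraries (log2 -1.51 ± 0.24 SE, adjusted p = 1.03e-08). MTF2 at Col4a1 was 70.6 and 65.8 CPM in the NPC libraries, against 168 and 109 CPM in the ESC libraries (log2 -1.33 ± 0.46 SE, adjusted p = 0.0363). The groups did not overlap with either antibody, but the MTF2 call was lost with any 1 library left out, with adjusted p of 0.171, 0.0897, 0.512 and 0.0904 without NPC replicate 1, NPC replicate 2, ESC replicate 1 and ESC replicate 2. H3K27me3 at Col4a1 was 132 and 241 CPM in the NPC libraries, against 162 and 167 CPM in the ESC libraries (log2 0.50 ± 0.74 SE, adjusted p = 0.589). The NPC libraries lay on both sides of the ESC libraries. The log2 change was -0.57 without NPC replicate 2 and 1.07 without NPC replicate 1. With a minimum count of 30 it was 0.95 and was called as a gain by edgeR (adjusted p = 0.0431). H3K4me3 was 78.7 and 75.8 CPM in the NPC libraries, against 76.1 and 78.7 CPM in the ESC libraries (log2 -0.02 ± 0.09 SE, adjusted p = 0.844), with overlapping groups.

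The X-linked pair Col4a5 and Col4a6, whose products serve in kidney and smooth muscle basement membranes, changed with the marks and had too few reads for SUZ12. H3K4me3 at Col4a5 was 22.1 and 24.8 CPM in the NPC libraries, against 8.54 and 9.39 CPM in the ESC libraries (log2 1.41 ± 0.19 SE, adjusted p = 1.8e-12). H3K27me3 was 17.7 and 17.2 CPM in the NPC libraries, against 32.1 and 38.6 CPM in the ESC libraries (log2 -0.76 ± 0.32 SE, adjusted p = 0.0386). Neither mark overlapped between the cell types, and the H3K27me3 call was lost with DESeq2, without either ESC library and without NPC replicate 1 (log2 -0.50, adjusted p = 0.203). Col4a6 gave log2 1.43 for H3K4me3 and -0.80 for H3K27me3, the second of which was -0.38 without NPC replicate 1 (adjusted p = 0.323). The Col4a3 and Col4a4 pair, chains of the glomerular basement membrane, instead had less H3K4me3: Col4a3 was at 11.6 and 12.7 CPM in the NPC libraries, against 21.2 and 21.5 CPM in the ESC libraries (log2 -0.80 ± 0.18 SE, adjusted p = 3.62e-05), with no overlap. That call was lost with TMM factors from background windows (adjusted p = 0.173).

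All 6 type VI genes lost H3K27me3, and SUZ12 passed at 0 of them (0 of 6 at an unadjusted p below 0.05, and DESeq2 also called none). Over all windows H3K27me3 fell in 23.5% and SUZ12 in 13.1%. SUZ12 at these genes was not above IgG in ESC, with log2 ratios to IgG from -1.09 at Col6a6 to 0.33 at Col6a2. The lowest ratio at a collagen gene with a SUZ12 loss was 0.86, at Col8a2. Whether a fall could have been measured at the type VI genes was not tested. Col6a1, Col6a2 and Col6a3 encode the classical chains of the beaded microfilaments found around muscle and many other cells, and Col6a4, Col6a5 and Col6a6 encode further chains that can replace the Col6a3 chain. Col6a1 and Col6a2 lie 102.6 kb apart on chromosome 10, and Col6a4 to Col6a6 lie within 287.0 kb on chromosome 9, with windows that do not overlap. H3K27me3 at Col6a3 (chr1:90841472-90846471) was 18.8 and 17.8 CPM in the NPC libraries, against 93.2 and 78.8 CPM in the ESC libraries (log2 -2.01 ± 0.34 SE, adjusted p = 2.76e-07). At Col6a5 (chr9:105958144-105963143) it was 21.1 and 24.8 CPM in the NPC libraries, against 118 and 116 CPM in the ESC libraries (log2 -2.08 ± 0.41 SE, adjusted p = 9.45e-06). At Col6a2 it was 34.4 and 27.4 CPM in the NPC libraries, against 151 and 122 CPM in the ESC libraries (log2 -1.96 ± 0.47 SE, adjusted p = 0.000236). In each case both NPC libraries lay below both ESC libraries, and this held for the other type VI genes. How often all windows separate in this way was not counted. Col6a4, Col6a1 and Col6a6 had log2 changes of -1.72, -1.16 and -1.0 (adjusted p = 0.000108, 0.00443 and 0.00717). In ESC, H3K27me3 was above IgG at Col6a2 to Col6a5 and not at Col6a1 or Col6a6. Both other scalings left all 6 called. DESeq2 kept Col6a2 to Col6a5 and not Col6a1 (adjusted p = 0.0536) or Col6a6 (0.129). Calls were also lost without ESC replicate 1 at Col6a1, Col6a2 and Col6a6 (adjusted p = 0.164, 0.0724 and 0.392), without ESC replicate 2 at Col6a1 (0.0693) and without NPC replicate 2 at Col6a6 (0.07).

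H3K4me3 was low at the type VI genes in both cell types, with a median over the 6 of 3.67 CPM in NPC and 4.29 CPM in ESC, against 23.5 and 25.4 CPM over all windows. Only Col6a5 passed, at 2.14 and 1.78 CPM in the NPC libraries, against 9.81 and 8.84 CPM in the ESC libraries (log2 -2.30 ± 0.51 SE, adjusted p = 1.82e-05). That fall rests on 7 and 15 counts in NPC and 62 and 32 counts in ESC, and was lost without ESC replicate 1 (adjusted p = 0.0893). Col6a1 was the collagen gene at which MTF2 rose: it was at 41.0 and 46.4 CPM in the NPC libraries, against 9.61 and 27.2 CPM in the ESC libraries (log2 1.14 ± 0.40 SE, adjusted p = 0.0388). The groups did not overlap, all 4 levels lay below the IgG level of 58.4 CPM in NPC and 63.7 CPM in ESC, and the call was lost without ESC replicate 1, NPC replicate 1 or NPC replicate 2 (adjusted p = 0.679, 0.151 and 0.252).

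The 9 FACIT collagens split between the 2 kinds of change. SUZ12 fell at 3 (Col12a1, Col14a1 and Col19a1), H3K27me3 fell at Col9a1, Col16a1 and Col22a1, and both rose at Col9a2. In all windows SUZ12 fell in 13.1% and H3K27me3 in 23.5%, so these small counts are no result about the class. Type IX collagen, made of the Col9a1, Col9a2 and Col9a3 chains, coats the type II fibrils of cartilage, and its chains differed from each other. At Col9a1 (chr1:24192703-24197702), whose promoter above holds no CG, H3K27me3 was 17.7 and 13.4 CPM in the NPC libraries, against 65.2 and 69.5 CPM in the ESC libraries (log2 -1.92 ± 0.32 SE, adjusted p = 1.65e-07). At Col9a2 (chr4:121037066-121042065) it was 82.0 and 89.2 CPM in the NPC libraries, against 22.8 and 37.1 CPM in the ESC libraries (log2 1.79 ± 0.40 SE, adjusted p = 9.46e-05). Both differences were free of overlap and ran in opposite directions. The Col9a2 gain was lost without ESC replicate 1 (adjusted p = 0.345) or ESC replicate 2 (0.085). H3K4me3 at Col9a2 was 22.4 and 19.6 CPM in the NPC libraries, against 62.6 and 57.7 CPM in the ESC libraries (log2 -1.59 ± 0.11 SE, adjusted p = 7.85e-42), the largest H3K4me3 fall after Col6a5. Col9a2 was also the only collagen gene at which SUZ12 rose, at 38.6 and 64.6 CPM in the NPC libraries, against 21.0 and 24.1 CPM in the ESC libraries (log2 0.95 ± 0.33 SE, adjusted p = 0.0316). SUZ12 there was not above IgG in either cell type (log2 ratio 0.19 in NPC and 0.50 in ESC). The SUZ12 rise did not pass when NPC replicate 2, ESC replicate 1 or ESC replicate 2 was left out (adjusted p = 0.563, 0.282 and 0.0902). At Col9a3 H3K27me3 gave log2 -0.75 and did not pass (adjusted p = 0.225), and H3K4me3 fell, with log2 -0.77 (adjusted p = 0.000888; 0.16 without NPC replicate 2).

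Col19a1, a minor collagen of muscle and of interneurons in the brain, lost SUZ12 with 58.0 and 35.7 CPM in the NPC libraries, against 133 and 122 CPM in the ESC libraries (log2 -1.70 ± 0.25 SE, adjusted p = 9.13e-10). Its window is chr1:24584938-24589937 on the minus strand. MTF2 there was 56.9 and 59.9 CPM in the NPC libraries, against 178 and 136 CPM in the ESC libraries (log2 -1.71 ± 0.48 SE, adjusted p = 0.00934). The groups did not overlap with either antibody, and the MTF2 call was lost without NPC replicate 1 (adjusted p = 0.109) or ESC replicate 1 (0.232). H3K27me3 at Col19a1 was 166 and 257 CPM in the NPC libraries, against 208 and 161 CPM in the ESC libraries (log2 0.49 ± 0.78 SE, adjusted p = 0.622). These values overlapped, so the level of the mark at Col19a1 was not told apart between the cell types. Col12a1 and Col14a1, whose products sit on type I fibrils, had SUZ12 log2 changes of -1.27 and -1.0 (adjusted p = 2.41e-06 and 0.000219). They also had the highest mean H3K27me3 in NPC of all collagen genes, at 308 ± 138 CPM for Col14a1 and 268 ± 40.6 CPM for Col12a1 (SD, n = 2), against 215 ± 44.4 and 165 ± 1.43 CPM in ESC. Neither H3K27me3 difference passed (adjusted p = 0.455 and 0.33). Col16a1 lost H3K27me3 (log2 -1.45) and H3K4me3 (log2 -0.96), while Col20a1 gained H3K27me3 at a low level, with 21.1 and 16.6 CPM in the NPC libraries, against 10.4 and 9.26 CPM in the ESC libraries (log2 1.10 ± 0.47 SE, adjusted p = 0.0424). Each of these Col20a1 levels lay below the IgG level, at 31.4 CPM in NPC and 67.0 CPM in ESC. The Col20a1 call needed NPC replicate 2 and both ESC libraries (adjusted p = 0.199, 0.167 and 0.186 with each of these left out).

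Of the 4 transmembrane collagens, SUZ12 fell at Col13a1, Col23a1 and Col25a1, beside 13.1% of all windows. Col13a1 acts at the neuromuscular junction and Col25a1 in motor innervation. SUZ12 at Col25a1 was 40.8 and 26.7 CPM in the NPC libraries, against 80.4 and 70.3 CPM in the ESC libraries (log2 -1.42 ± 0.28 SE, adjusted p = 6.26e-06), and H3K4me3 there was 51.8 and 45.5 CPM in the NPC libraries, against 37.3 and 27.1 CPM in the ESC libraries (log2 0.49 ± 0.11 SE, adjusted p = 2.49e-05). Neither overlapped between the cell types, and the H3K4me3 call was lost without ESC replicate 2 (adjusted p = 0.108). Col23a1 (chr11:51287420-51292419) was the only collagen gene called as lower with both SUZ12 and H3K27me3. SUZ12 at Col23a1 was 60.1 and 69.1 CPM in the NPC libraries, against 112 and 109 CPM in the ESC libraries (log2 -1.03 ± 0.24 SE, adjusted p = 0.000255). H3K27me3 at Col23a1 was 52.1 and 44.6 CPM in the NPC libraries, against 137 and 156 CPM in the ESC libraries (log2 -1.39 ± 0.51 SE, adjusted p = 0.0173), and H3K4me3 rose by log2 0.43. The H3K27me3 call was lost without ESC replicate 1 (adjusted p = 0.297) or ESC replicate 2 (0.21).

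Col13a1 (chr10:61976609-61981608) was the only collagen gene called as lower with SUZ12 and higher with H3K27me3. SUZ12 was 79.4 and 71.3 CPM in the NPC libraries, against 109.6 and 106 CPM in the ESC libraries (log2 -0.77 ± 0.23 SE, adjusted p = 0.00947). H3K27me3 was 204 and 318 CPM in the NPC libraries, against 84.9 and 86.5 CPM in the ESC libraries (log2 1.90 ± 0.77 SE, adjusted p = 0.0331). H3K4me3 was 36.8 and 41.7 CPM in the NPC libraries, against 72.8 and 78.1 CPM in the ESC libraries (log2 -0.92 ± 0.09 SE, adjusted p = 4.26e-21). No overlap was seen with any of the 3, but the SUZ12 call was lost with DESeq2 (adjusted p = 0.0646), and without ESC replicate 1, NPC replicate 1 or NPC replicate 2 (0.0731, 0.062 and 0.15). The H3K27me3 call was lost without ESC replicate 1 (0.594) or ESC replicate 2 (0.554). Col17a1, a hemidesmosome component of skin, lost H3K27me3 (log2 -1.36, adjusted p = 0.0029).

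In the smaller classes, Col8a1 and Col8a2, which form the hexagonal lattice of the corneal Descemet membrane, went different ways. H3K27me3 at Col8a1 was 25.5 and 25.5 CPM in the NPC libraries, against 81.8 and 81.8 CPM in the ESC libraries (log2 -1.45 ± 0.34 SE, adjusted p = 0.000221), with no overlap. SUZ12 at Col8a2 was 38.6 and 40.1 CPM in the NPC libraries, against 94.4 and 96.3 CPM in the ESC libraries (log2 -1.52 ± 0.26 SE, adjusted p = 2.64e-07), with no overlap, while its H3K27me3 gave log2 0.07 (adjusted p = 0.948). Of the multiplexins, which lie at basement membranes, Col15a1 lost SUZ12 (log2 -1.06), MTF2 (-1.14) and H3K4me3 (-0.97). Col18a1, the source of endostatin, gained H3K4me3, with 99.9 and 94.7 CPM in the NPC libraries, against 70.6 and 64.9 CPM in the ESC libraries (log2 0.48 ± 0.09 SE, adjusted p = 1.18e-07), the highest H3K4me3 level in NPC after Col2a1. Col7a1, the anchoring fibril collagen of skin, lost H3K27me3 (log2 -1.14) and H3K4me3 (-0.79), and the H3K4me3 call was lost with DESeq2. Col26a1 lost SUZ12 (log2 -1.04) and gained H3K4me3 (0.95), and Col22a1, a FACIT collagen of the junction of muscle and tendon, lost H3K27me3 (log2 -0.90).

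The SUZ12 and MTF2 changes ran together along the collagen genes. All 8 genes with an MTF2 loss also had a SUZ12 loss, as did 73.2% of all windows with an MTF2 loss, and 5 SUZ12 losses (Col8a2, Col13a1, Col23a1, Col25a1 and Col26a1) did not pass with MTF2. Across the 40 genes tested with both, the log2 changes correlated with r = 0.87 and rho = 0.83, and r was 0.72 over all windows. These are descriptions across genes that share libraries, depth and base composition. The JARID2 change exceeded the MTF2 change at Col12a1 in the test of the difference itself, by log2 1.69 ± 0.54 SE, adjusted p = 0.048. It was the only call among 43 collagen genes, and 2.79% of all windows were positive and 0.667% negative in the same test. The Col12a1 call was lost with DESeq2, with library totals and without 6 of the 8 libraries in turn, all except MTF2 replicate 2 of either cell type.

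Few collagen genes were called with both SUZ12 and H3K27me3. Of the 13 genes that lost SUZ12, H3K27me3 fell at 1, rose at 1 and did not pass at 11, and over all windows that lost SUZ12 the shares were 13.9%, 7.51% and 78.5%. Of the 20 that lost H3K27me3, SUZ12 fell at 1 of the 18 tested, where the share over all such windows was 8.42%. These counts are near the background and are no result about the collagen genes. They also depend on the libraries and the scaling. Without NPC replicate 2 the H3K27me3 log2 change was -2.11 at Col2a1, -1.38 at Col25a1, -0.57 at Col4a1, 0.28 at Col12a1, -0.31 at Col14a1 and -0.42 at Col19a1. Without NPC replicate 1 it was -1.04, -0.17, 1.07, 1.36, 1.41 and 0.98 at the same genes. With library totals, H3K27me3 also fell at Col2a1, Col25a1 and Col26a1. The difference of both changes was tested as an interaction in edgeR over 8 libraries. It was positive (H3K27me3 kept or gained relative to SUZ12) at 5 of 44 genes and negative at 12, beside 16.7% and 14.2% of all windows. The positive genes were Col13a1 (2.67 ± 0.80 SE, adjusted p = 0.00633), Col12a1 (2.22 ± 0.83 SE, adjusted p = 0.03), Col19a1 (2.18 ± 0.81 SE, adjusted p = 0.0297) and the pair Col4a1 (2.00 ± 0.80 SE, adjusted p = 0.0414) and Col4a2, which shares its reads. The negative genes were all 6 type VI genes with Col7a1, Col8a1, Col9a1, Col11a1, Col16a1 and Col17a1. H3K27me3 fell at all 12 of these and SUZ12 passed at none. SUZ12 was not above IgG in ESC at any of the 12, with log2 ratios from -1.40 at Col8a1 to 1.03 at Col11a1. SUZ12 losses were called at some other genes not above IgG in ESC, such as Col8a2 (ratio 0.86) and Col25a1 (0.95). What part the low SUZ12 level had in the negative differences was not tested. Among the negative genes Col9a1 differed most (-2.61 ± 0.48 SE, adjusted p = 1.15e-05), followed by Col6a5 (-2.01 ± 0.55 SE, adjusted p = 0.00316). The negative count was 4 with DESeq2 and ranged from 5 to 16 with 1 library left out. It was 6 without ESC H3K27me3 replicate 1, 5 without ESC SUZ12 replicate 1, 8 without ESC SUZ12 replicate 2, 6 without NPC SUZ12 replicate 1 and 5 without NPC SUZ12 replicate 2. The positive count was 0 without either ESC H3K27me3 library, ESC SUZ12 replicate 1 or either NPC SUZ12 library, 1 without ESC SUZ12 replicate 2 and 14 without NPC H3K27me3 replicate 1. Both NPC H3K27me3 libraries differed from each other far more than counting noise: chi-square per degree of freedom was 6.67, against 1.23 for the ESC pair. Their 1% of windows with most reads held 11.04% and 19.61% of counts. What part this had in the H3K27me3 results was not tested.

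**Figure D3:**
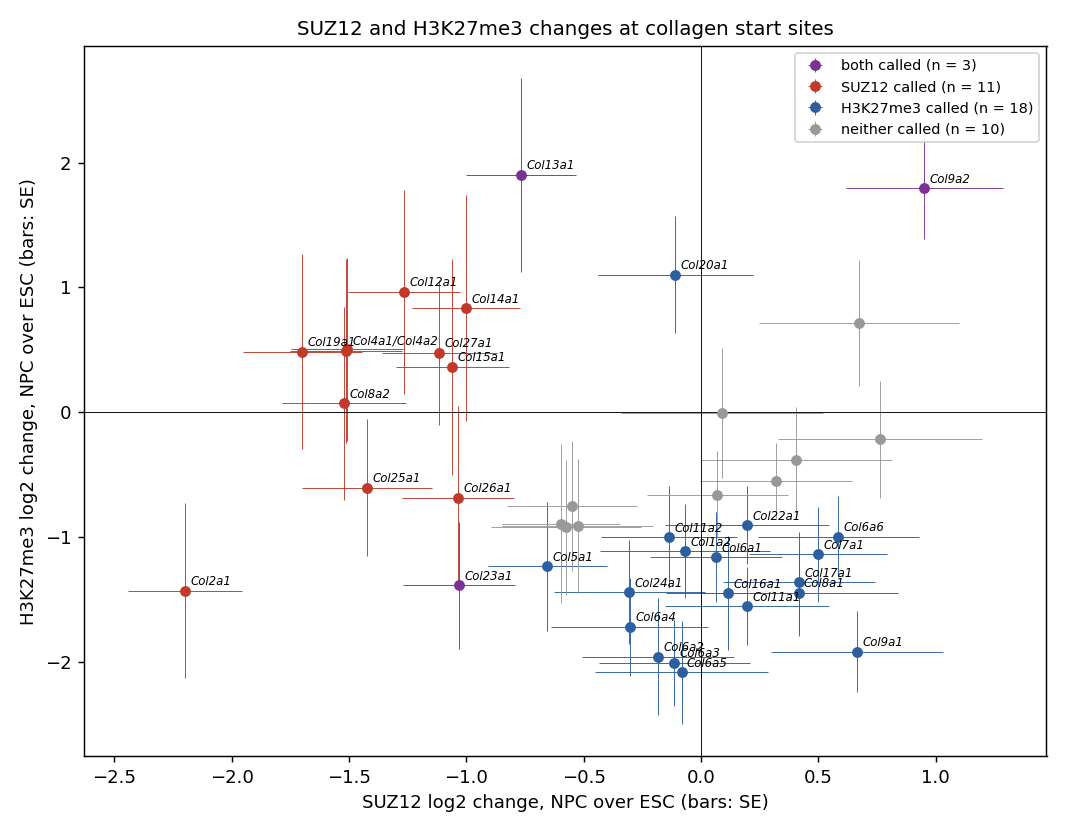
Log2 change of SUZ12 (horizontal) against log2 change of H3K27me3 (vertical) in NPC over ESC for the 42 collagen genes tested with both, with SE bars and colours for the edgeR calls. The genes called with SUZ12 alone lie to the left, on both sides of zero H3K27me3 change, and those called with H3K27me3 alone lie below zero, except Col20a1, with SUZ12 changes on both sides of zero.

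The H3K4me3 calls at these genes were set beside those of all windows with the same call. Of the 13 genes with a SUZ12 loss, H3K4me3 rose at 6 (Col2a1, Col12a1, Col19a1, Col23a1, Col25a1 and Col26a1), fell at 4 (Col8a2, Col13a1, Col14a1 and Col15a1) and did not pass at 3, while it rose in 47.7% and did not pass in 29.4% of all windows with a SUZ12 loss. Of the 20 genes with an H3K27me3 loss, it rose at 7 (Col1a2, Col4a5, Col4a6, Col5a1, Col11a1, Col23a1 and Col24a1), fell at Col6a5, Col7a1 and Col16a1, and did not pass at 10, while over all windows with an H3K27me3 loss the shares were 25.3%, 17.4% and 57.3%. Of the 3 genes with an H3K27me3 gain, it fell at Col9a2 and Col13a1 and did not pass at Col20a1, and it fell in 44.9% of all windows with such a gain. No test of these shares was made. Across the 43 genes tested with both marks, r of the log2 changes was -0.28 (rho -0.25), and over all windows it was -0.17.

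The rank of each gene among all windows of its own library needs neither IgG nor scaling. It therefore does not correct for windows that also rank high with IgG. A gene was counted as high where it lay in the top 10% in both libraries of a group. With SUZ12, 4 collagen genes were high in NPC and 13 in ESC (5.47% and 8.41% of all windows). With MTF2, 4 were high in NPC and 12 in ESC (4.90% and 8.36%). With JARID2, 0 were high in NPC and 9 in ESC (4.32% and 4.96%). Of these 9, Col1a1, Col14a1, Col16a1 and Col23a1 were also in the top 10% of the ESC IgG library (percentiles 92.0 to 99.1). Col2a1, Col4a1, Col4a2, Col11a2 and Col26a1 were not (64.9 to 89.3). With H3K27me3, 13 were high in NPC and 19 in ESC (9.20% and 8.87%), and 10 in ESC at the top 5%. With H3K4me3, Col2a1 was high in NPC and 0 genes in ESC (9.12% and 9.35%). Genes in the top 10% for H3K27me3 with H3K4me3 at or above the median in both libraries numbered 9 in NPC (Col1a1, Col2a1, Col4a1, Col4a2, Col12a1, Col13a1, Col14a1, Col19a1 and Col27a1) and 8 in ESC (Col4a1, Col4a2, Col5a1, Col12a1, Col14a1, Col15a1, Col23a1 and Col25a1), beside 5.20% and 3.51% of all windows. The highest ESC levels were those of Col2a1 for SUZ12 (237 ± 52.4 CPM), MTF2 (261 ± 64.6 CPM), JARID2 (97.5 ± 16.9 CPM) and H3K27me3 (255 ± 26.3 CPM; SD, n = 2).

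Levels over IgG were tested in 1 edgeR fit of all 22 libraries, called at an adjusted p below 0.05 and a log2 ratio of at least 1. Each cell type's only IgG library was assumed to vary like the other groups, and it held 9 to 56 counts per collagen gene in NPC and 5 to 27 in ESC. With H3K27me3, 20 collagen genes were above IgG in NPC and 30 in ESC, beside 15.1% and 22.5% of all windows. These counts depend on the fit: with H3K27me3 and IgG alone they were 0 in NPC and 9 in ESC. Of the genes that lost H3K27me3, Col4a5, Col4a6, Col6a1, Col6a6, Col7a1 and Col22a1 were not above IgG in ESC. With SUZ12, 0 were above IgG in NPC and 6 in ESC (Col2a1, Col4a1, Col4a2, Col12a1, Col15a1 and Col19a1), beside 0% and 5.66%. With MTF2, 0 were above IgG in NPC and 7 in ESC, beside 0% and 8.94%. With JARID2, 0 were above IgG in either cell type, beside 0% of all windows in both. The counts of 0 in edgeR came with 2 genes for SUZ12, 1 for MTF2 and 1 for JARID2 in NPC, and 1 for JARID2 in ESC, that had the same fold and an unadjusted p below 0.05. The SUZ12 fit with IgG alone gave 1 gene in NPC (Col14a1) and 12 in ESC. In the fit of all libraries, leaving out ESC replicate 1 gave 2 genes in ESC for SUZ12 and 2 for MTF2. With H3K4me3, 8 were above IgG in NPC and 6 in ESC, beside 38.9% and 36.0%, and the ESC count was 3 without ESC replicate 2. The low JARID2 signal limits what its changes can show at this depth.

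RefSeq promoter sequences were found for 33 of the 44 genes. The genes without one were Col1a1, Col2a1, Col4a3, Col5a2, Col6a6, Col7a1, Col9a3, Col12a1, Col14a1, Col22a1 and Col26a1. In the 250 bases before the start, the 9 genes with a SUZ12 loss held 8 to 31 CG with a median of 18. The 16 with an H3K27me3 loss and no SUZ12 call held 0 to 28 with a median of 7.5. The 9 include Col4a1 and Col4a2, whose windows share reads. The 16 include Col4a5 and Col4a6, which were not tested with SUZ12. The 5 type VI genes held 3 to 14 with a median of 5.0. The shown promoters run from 18 CG at Col25a1 to 0 at Col9a1. Over all 33 genes the median was 10.0, against 9.0 over 15028 promoters, and 11 genes (33.3%) had an observed over expected CpG ratio of at least 0.6, against 43.7%. The triplet GCG, searched as GCG or CGC so that both strands are covered, holds a CG in each match and occurred in 29 of the 33 genes, where 80.2% of all promoters had it. Such matches are descriptions and not sites.

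**Figure D4:**
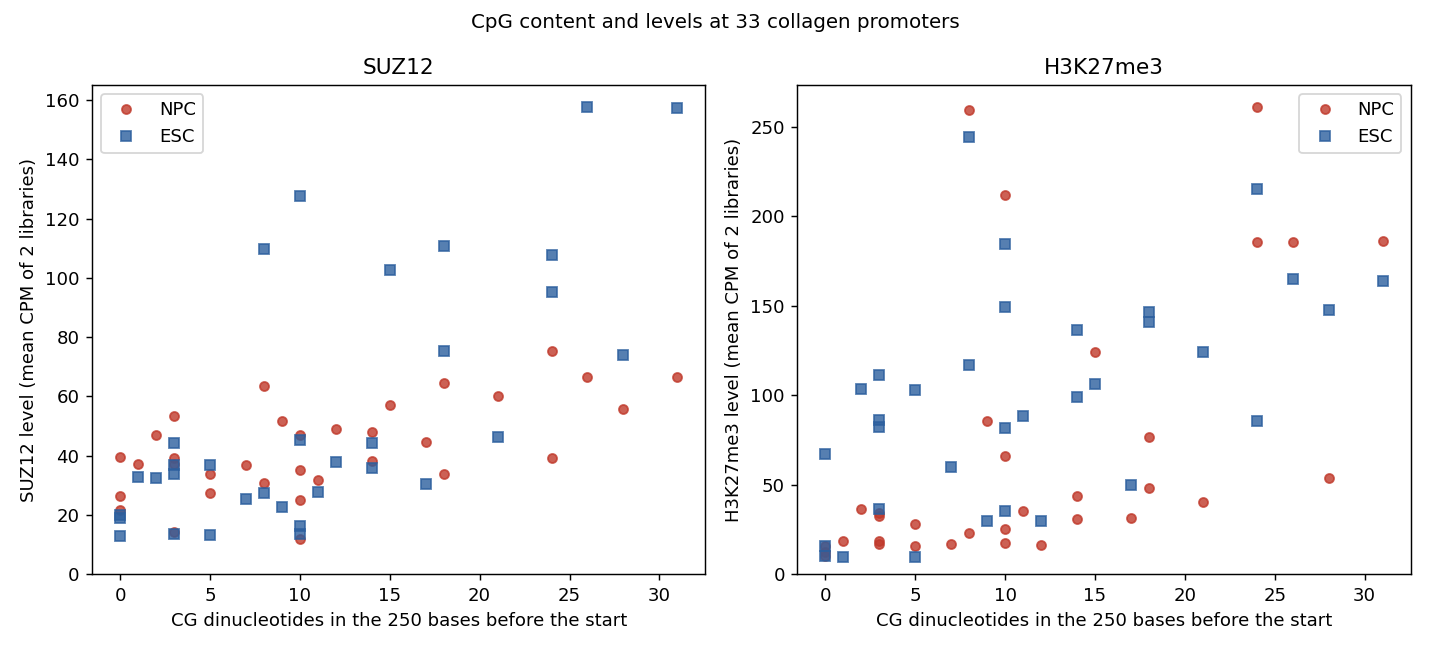
CG dinucleotides in the 250 bases before the start (horizontal) against mean CPM of 2 libraries (vertical) in NPC and ESC for 33 collagen genes, SUZ12 on the left and H3K27me3 on the right. Levels in ESC are mostly higher where CG is frequent, and Col15a1 and Col19a1 (8 and 10 CG) have high levels with few CG.

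Across these 33 genes the mean SUZ12 level was higher where CG was more frequent, with r = 0.61 and rho = 0.54 in NPC and r = 0.71 and rho = 0.67 in ESC. For H3K27me3 r was 0.55 in NPC and 0.54 in ESC. For H3K4me3 it was 0.57 in NPC and 0.70 in ESC. For MTF2 r was 0.75 in NPC and 0.69 in ESC (rho 0.69 and 0.72), although no window was above IgG with MTF2 in NPC. The same correlation for IgG was not computed. These correlations across genes carry no test, since the genes share libraries and depth, the Col4a1 and Col4a2 windows share reads, and CG content goes with GC content.

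Genes that make, process and bind collagen were read in the same fits. Over all windows SUZ12 rose in 2.97% and fell in 13.1%, MTF2 rose in 3.26% and fell in 9.04%, H3K27me3 rose in 22.9% and fell in 23.5%, and H3K4me3 rose in 26.7% and fell in 29.2%, and list counts near these shares are no result about the list. Among 30 genes of collagen biosynthesis and crosslinking, 29 were tested with SUZ12, MTF2 and H3K4me3 and 28 with H3K27me3. SUZ12 fell at 9 and rose at 1, MTF2 fell at 10, H3K27me3 rose at 4 and fell at 5, and H3K4me3 rose at 12 and fell at 10. Adamts2, the protease that trims the amino end of procollagen, had SUZ12 of 112 and 116 CPM in the NPC libraries, against 331 and 278 CPM in the ESC libraries (log2 -1.68 ± 0.22 SE, adjusted p = 6.76e-12). P4hb, a subunit of the enzyme that hydroxylates prolines in collagen, had H3K27me3 of 54.3 and 24.2 CPM in the NPC libraries, against 6.21 and 12.4 CPM in the ESC libraries (log2 2.24 ± 0.38 SE, adjusted p = 1.95e-07). Neither overlapped between the cell types. Of the 8 collagen receptors tested, H3K4me3 rose at 4. Ddr1, a receptor tyrosine kinase activated by collagen, had H3K4me3 of 154 and 164 CPM in the NPC libraries, against 9.18 and 8.28 CPM in the ESC libraries (log2 4.16 ± 0.12 SE, adjusted p = 2.21e-248) and H3K27me3 of 24.4 and 24.2 CPM in the NPC libraries, against 52.8 and 69.5 CPM in the ESC libraries (log2 -1.07 ± 0.31 SE, adjusted p = 0.00277). Both NPC libraries lay far above both ESC libraries for H3K4me3 and below them for H3K27me3.

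Beside the same shares, among 13 regulators of collagen genes SUZ12 fell at 6, MTF2 at 5 and JARID2 at 1, and H3K4me3 rose at 7 and fell at 3 of the 12 it was tested at. Sox9, the transcription factor that drives Col2a1, Col9a1 and Col11a2 in cartilage, had SUZ12 of 68.7 and 82.5 CPM in the NPC libraries, against 443 and 378 CPM in the ESC libraries (log2 -2.70 ± 0.24 SE, adjusted p = 6.07e-25). JARID2 at Sox9 was 71.1 and 64.8 CPM in the NPC libraries, against 166 and 131 CPM in the ESC libraries (log2 -1.14 ± 0.25 SE, adjusted p = 0.00187). H3K4me3 at Sox9 was 183 and 178 CPM in the NPC libraries, against 54.4 and 58.5 CPM in the ESC libraries (log2 1.66 ± 0.09 SE, adjusted p = 2.1e-76). As at Col2a1, SUZ12 and JARID2 were lower and H3K4me3 higher in both NPC libraries, with no overlap. Of 18 partners of collagen in basement membranes, H3K4me3 rose at 1 and fell at 11, and H3K27me3 rose at 6 and fell at 3. Nid2, which joins laminin to type IV collagen, had H3K27me3 of 69.8 and 72.0 CPM in the NPC libraries, against 6.21 and 18.5 CPM in the ESC libraries (log2 2.86 ± 0.39 SE, adjusted p = 3.18e-11) and H3K4me3 of 51.8 and 48.3 CPM in the NPC libraries, against 124 and 125 CPM in the ESC libraries (log2 -1.35 ± 0.09 SE, adjusted p = 2.47e-51). Of 21 tested genes for proteins that sit on fibrils, H3K27me3 fell at 10 and rose at 1. Dpt, a fibril-binding matrix protein, had H3K27me3 of 8.87 and 11.5 CPM in the NPC libraries, against 68.4 and 55.6 CPM in the ESC libraries (log2 -2.33 ± 0.33 SE, adjusted p = 2.4e-10). Of 10 tested collagenases and inhibitors, H3K27me3 fell at 5. Mmp2, a gelatinase, had H3K27me3 of 31.0 and 31.9 CPM in the NPC libraries, against 103 and 103 CPM in the ESC libraries (log2 -1.47 ± 0.40 SE, adjusted p = 0.00111). Timp3, an inhibitor of such proteases, had H3K4me3 of 95.3 and 103 CPM in the NPC libraries, against 20.9 and 26.2 CPM in the ESC libraries (log2 2.11 ± 0.10 SE, adjusted p = 5.27e-90). For Nid2, Dpt, Mmp2 and Timp3 the NPC and ESC libraries did not overlap in these values.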

How the data were processed

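The deposited table holds raw counts of CUT&RUN reads per window. Per the submitters' processing notes, the authors used Bowtie2 2.3.4.3, Picard 2.19 and build mm10; the counting program is not given in the sources used here. All value columns were matched to samples by name, with 0 left unused. The collagen genes, classes and lists were chosen with earlier results of these data known.

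For each antibody, 4 libraries were compared with edgeR 4.0.16 in R 4.3.3 (quasi-likelihood test, TMM scaling, filterByExpr at a minimum count of 10, Benjamini-Hochberg adjustment over all windows tested, called below 0.05). Fold changes are NPC over ESC on the log2 scale with the SE of the fit. CPM was computed over library totals. No spike-in reads entered, so a shift shared by all windows was not measured. Alternatives were DESeq2 1.42.0, library totals, TMM factors from windows not above IgG, no filter, a minimum count of 30, non-overlapping windows only, a replicate block and each library left out. The fits were also run on simulated counts with the same dispersion for all antibodies and changes placed only in windows with more reads. That run does not cover the spread of the NPC H3K27me3 pair or windows with few counts. Figures were drawn in Python 3.11.15 with matplotlib 3.10.9.

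Genes named with values were a set of landmark collagens, the called members of each antibody (up to 10 per direction by size), the 5 highest members per antibody and cell type, the members called in an interaction, and the called pathway gene with the smallest p per list and antibody; other members were named after their values were seen. Counts of the 2 NPC JARID2 libraries agree within sampling noise, with a chi-square of 0.998 per degree of freedom. They stayed 2 libraries, since the NPC SUZ12 and ESC JARID2 pairs were nearly as close (1.03 and 1.02). Summed to 1 library, Col2a1 was still called.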

Additional observations from a re-analysis of the deposited data

How the results depend on the processing

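Counts of collagen genes that passed moved by over 1.5 times under the following settings. With DESeq2, SUZ12 and MTF2 rose at 0, JARID2 fell at 0, H3K27me3 fell at 13, the H3K27me3 change was below the SUZ12 change at 4 and the JARID2 change was above the MTF2 change at 0. With library totals, SUZ12 and MTF2 rose at 2 each, and the JARID2 change was above the MTF2 change at 0. With TMM factors from background windows, SUZ12 and MTF2 rose at 0, H3K27me3 rose at 1 and H3K4me3 fell at 2. With a minimum count of 30, which left 15 members tested for SUZ12, SUZ12 rose at 0 and fell at 5, JARID2 fell at 0, MTF2 fell at 2 and H3K27me3 rose at 7. The SUZ12 losses no longer called with this filter were all still tested, at smaller log2 changes. Examples are Col12a1 (-0.43 in place of -1.27) and Col15a1 (-0.23 in place of -1.06). TMM factors were computed again from the windows that passed the filter. The cause of these differences was not tested. Counts over all windows moved with DESeq2 too: SUZ12 rose in 11 and MTF2 in 4 windows, in place of 630 and 681.

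Above IgG, a log2 ratio of at least 2 left 10 genes in NPC and 14 in ESC for H3K27me3 and 1 in each for H3K4me3. Library totals gave 10 in NPC for H3K27me3, and 2 in NPC and 1 in ESC for H3K4me3. The IgG libraries of both cell types together gave 11 for SUZ12 and 12 for MTF2 in ESC. Fits of 1 antibody with IgG, chosen after seeing the data, gave 1 in NPC and 12 in ESC for SUZ12, and 0 in NPC and 9 in ESC for H3K27me3. Within the top 5% in both libraries there were in NPC 1 gene for SUZ12, 8 for H3K27me3, and 0 for MTF2 and H3K4me3, and in ESC 10 for H3K27me3, 7 for MTF2 and 5 for JARID2.

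With each library left out in turn, SUZ12 rose at 0 to 1 and fell at 10 to 14 genes, JARID2 rose and fell at 0 to 0, MTF2 rose at 0 to 1 and fell at 0 to 7, H3K27me3 rose at 0 to 11 and fell at 7 to 26, and H3K4me3 rose at 10 to 15 and fell at 9 to 12. The H3K27me3 change was above the SUZ12 change at 0 to 14 and below it at 5 to 16, and the JARID2 change was above the MTF2 change at 0 to 3 and below it at 0 to 1. Above IgG were 14 to 21 genes in NPC and 25 to 29 in ESC for H3K27me3, 6 to 8 in NPC and 3 to 4 in ESC for H3K4me3, 2 to 6 for SUZ12 and 2 to 9 for MTF2 in ESC, and 0 in the other groups. In single libraries the top 10% held 8 to 11 genes in NPC and 13 to 15 in ESC for SUZ12, 3 to 6 in NPC and 11 to 14 in ESC for JARID2, 9 to 10 in NPC and 13 in ESC for MTF2, 13 to 14 in NPC and 20 to 21 in ESC for H3K27me3, and 1 in NPC and 0 in ESC for H3K4me3.

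The replicate block gave 0 SUZ12 gains, 0 MTF2 gains, 0 MTF2 losses, 1 H3K27me3 gain and 15 H3K27me3 losses, 0 genes with the H3K27me3 change above the SUZ12 change, and 0 with the JARID2 change above the MTF2 change. Its other counts stayed within 1.5 times. Deviations of same-numbered libraries correlated with r of -0.00 with SUZ12, -0.17 with MTF2, 0.01 with JARID2, -0.19 with H3K27me3 and -0.03 with H3K4me3. These values cannot decide whether the numbers pair the samples, since several replicate pairs differed by little more than sampling noise. The crossed replicate block, chosen after seeing the data, gave 13 MTF2 losses and 20 H3K27me3 losses.

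The log2 change turned its sign for SUZ12 at Col13a1 (0.068) and Col1a1 (0.24) with a minimum count of 30. With a library left out, it ran from -0.70 to 0.91 for SUZ12 at Col11a1, and for H3K27me3 from -0.57 to 1.07 at Col4a1, from -0.31 to 1.41 at Col14a1 and from -0.42 to 0.98 at Col19a1, negative in these 3 without NPC replicate 2. SUZ12 at Col11a1 was at -0.19 without ESC replicate 2. For H3K4me3 at Col4a1 it ran from -0.072 to 0.022 with a library left out, and was 0.0064 with DESeq2 and 0.30 with TMM factors from background windows. Of the single-gene values under all alternatives, 850 kept direction and side of the threshold, 249 lost the call, 20 gained it and 10 turned. Depth limits the low counts of JARID2 and of H3K4me3 at type VI genes, and 2 libraries per group leave the 4-library fits 2 residual degrees of freedom.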

Other observations

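Further genes of the pathway lists were read with the same edgeR fits, taking in each list the gene with the smallest p where it was called. Among biosynthesis genes, MTF2 at Adamts3, a procollagen protease, was 22.8 and 30.9 CPM in the NPC libraries, against 87.7 and 60.6 CPM in the ESC libraries (log2 -1.77 ± 0.34 SE, adjusted p = 0.00011), and H3K4me3 at Crtap, a cofactor of proline hydroxylation, was 26.7 and 27.5 CPM in the NPC libraries, against 69.0 and 68.5 CPM in the ESC libraries (log2 -1.35 ± 0.10 SE, adjusted p = 5.3e-37). Among basement membrane partners, Smoc2 had SUZ12 of 64.4 and 42.3 CPM in the NPC libraries, against 108 and 133 CPM in the ESC libraries (log2 -1.40 ± 0.25 SE, adjusted p = 4.57e-07). MTF2 at Smoc2 was lower too (log2 -1.84, adjusted p = 0.00292), and SUZ12 fell at 3 and rose at 1 of 17 genes in that list (13.1% and 2.97% of all windows). Among regulators, MTF2 at Prrx1, a mesenchymal homeobox gene, gave log2 -1.90 (adjusted p = 0.0048). H3K27me3 at Trps1, a repressor active in cartilage, gave log2 3.30 (adjusted p = 5.09e-14) in a window shared with Mir1907.

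Among the 10 receptors SUZ12 and MTF2 each rose at 1 and fell at 1. SUZ12 at Itga10, an integrin chain that binds type II collagen, was 62.2 and 60.2 CPM in the NPC libraries, against 23.3 and 18.5 CPM in the ESC libraries (log2 1.25 ± 0.33 SE, adjusted p = 0.00143), and MTF2 at Lair1, an inhibitory receptor of immune cells, was 43.2 and 25.1 CPM in the NPC libraries, against 4.81 and 16.7 CPM in the ESC libraries (log2 1.56 ± 0.46 SE, adjusted p = 0.0138). Among collagenases SUZ12 at Mmp9 gave log2 -0.99 (adjusted p = 0.000554) and MTF2 at Mmp14, whose window overlaps that of Mrpl52, gave log2 -1.0 (adjusted p = 0.0329). Among fibril-associated genes SUZ12 at Tnxb gave log2 -1.50 (adjusted p = 1.56e-08), and MTF2 at Matn4, which shares its window with Rbpjl, gave log2 -1.51 (adjusted p = 0.00846). H3K4me3 at Thbs1, a matrix glycoprotein gene whose window overlaps that of Gm13986, was 58.5 and 60.2 CPM in the NPC libraries, against 16.1 and 13.8 CPM in the ESC libraries (log2 1.95 ± 0.13 SE, adjusted p = 1.25e-52).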
